A study of Mus musculus with 15 samples.

Results

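Mouse Embryonic Fibroblasts (MEFs) exposed to IL-6 together with its soluble receptor were compared directly with MEFs exposed to TGFß1, on the 3 arrays labelled IL6+IL6R and the 3 arrays labelled TGFb1 of a series of 15 arrays. The 3 arrays labelled CTRL, untreated cells of the same line, were used to say for each gene which of both groups had moved. The IL6+IL6R cells had received IL-6 at 20 ng/ml with the soluble receptor sIL-6Rα at 25 ng/ml, and the TGFb1 cells TGFß1 at 5 ng/ml, so that doses were not matched between both cytokines. The labels give exposures of 24 or 72 h for the series without saying which applied to which array. The study's text gives its array work on TGFß1 and TNFα as 24 h of stimulation and does not name the IL6+IL6R arrays, so that a difference in exposure time, if there was one, cannot be told apart from the cytokine. All cells were of 1 established line (3T3 in the labels, Balb/c/3T3 clone A31 in the study's methods), a model of fibroblasts in culture and not of fibroblasts in tissue. Arrays are called here by their group and the number that opens their label: IL6+IL6R 3, 8 and 13, TGFb1 2, 7 and 12, CTRL 1, 6 and 11. The study describes its CTRL, TGFß1 and TNFα arrays as independent experiments. Neither the labels nor the study say so of the IL6+IL6R arrays, and if these were not separate cultures, their spread would be technical.

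IL-6 binds its receptor, and the pair then binds gp130 (*Il6st*), which is present on most cells. A soluble form of the receptor therefore lets IL-6 act on cells that carry little receptor of their own, a route known as trans-signalling. Behind gp130, Janus kinases phosphorylate STAT3, which enters the nucleus and switches on acute-phase genes and its own inhibitor *Socs3*. TGFß1 binds a pair of serine/threonine kinase receptors that phosphorylate SMAD proteins. In fibroblasts this pathway is known for raising extracellular matrix and contractile genes, and its inhibitors include *Smad7* and *Skil*.

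Levels are log2 processed signals minus the 75th percentile of the array, and a difference of 1 on this scale is a 2-fold difference. Between 48.31% and 54.85% of the 56605 probes were well above background on each of the 9 arrays, and no spot was saturated. The arrays lay on 2 slides, each holding all 3 groups: IL6+IL6R 3 and 8 with TGFb1 7 on slide 1, and IL6+IL6R 13 with TGFb1 2 and 12 on slide 2. Arrays of a group correlated at 0.9874 to 0.9909 within a slide and at 0.9814 to 0.9868 between slides, so the slide was a term of the model. All 10 fibroblast markers looked at (among them *Col1a2*, *Thy1* and *Vim*) were above background on the 9 arrays. Of the markers of other cells, 5 of 8 leukocyte markers (*Ptprc*, *Adgre1*, *Cd79a*, *Lyz2* and *Tyrobp*) and 5 of 6 endothelial markers were above background on none. *Cd68*, *Itgam* and *Cd3e* of the leukocyte list, *Pecam1* of the endothelial list, *Krt13* of the epithelial list and 3 of 4 adipocyte markers were above background on all 9. In bulk RNA, fewer cells of a kind and less RNA per cell cannot be told apart, which holds for each difference given here.

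Of 28388 probes tested, 2879 (10.1%) were called higher with IL-6 than with TGFß1 and 2683 (9.45%) were called lower, a call being a limma q-value below 0.05 with a fold-change of at least 1.5. These calls covered 3214 gene names, 1631 higher and 1584 lower. The 3 IL6+IL6R arrays all lay on 1 side of the 3 TGFb1 arrays for 5233 of the 5562 called probes, against 41.8% of all tested probes. Within-slide differences had the sign of the fit on both slides for 5559 of the 5560 called probes measured on all 6 arrays. The calls were made on these same arrays, so both counts follow largely from the selection and are no separate support. The balance between both directions depended on the scaling: with the 75th percentile taken over probes above background on all arrays, 3581 probes were called higher and 1904 lower, so that 65.3% of the calls were higher with IL-6 in place of 51.8%, and the median difference over all tested probes moved from -0.07 to 0.05.

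Against CTRL both treatments differed widely in the number of calls. With IL-6, 34 probes (0.12%) were called higher than CTRL and 5 (0.0176%) lower, and 1624 had an unadjusted p below 0.05. With TGFß1, 2894 probes (10.2%) were called higher than CTRL and 2991 (10.5%) lower. These 2 comparisons use the same CTRL arrays, and the direct comparison uses the same treated arrays, so the 3 are not independent. Named genes were chosen by rule, 112 in all: the 12 furthest in each direction, up to 4 called members of each of 21 gene lists, the 26 genes of the study's signature and a fixed set. All 112 were tested, and 106 were called, 58 higher and 48 lower with IL-6. For 97 of the 112, TGFb1 alone was called against CTRL. For 1 (*Socs3*), IL-6 alone was called. For 4 (*Bcl3*, *Cebpd*, *Cxcl5* and *1600025M17Rik*), both were called in opposite directions, and for 1 (*Hp*) both were called in the same direction. For 9 neither side was called. Of the 102 named genes called with TGFß1 against CTRL, 76 kept that call in every alternative fit. A side not called is not shown to be at the control level: the number of IL-6 calls against CTRL ran from 8 to 33 probes when 1 array was left out, and was 245 with the run of label numbers added to the model. In that last fit 10 more named genes were called with IL-6 against CTRL, 9 of them higher (*Abcc3*, *Fst*, *Gbp2*, *Il6*, *Mt2*, *Osmr*, *Ptx3*, *Timp1* and *Tmprss6*) and *Lrrc15* lower.

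**Figure D1:**
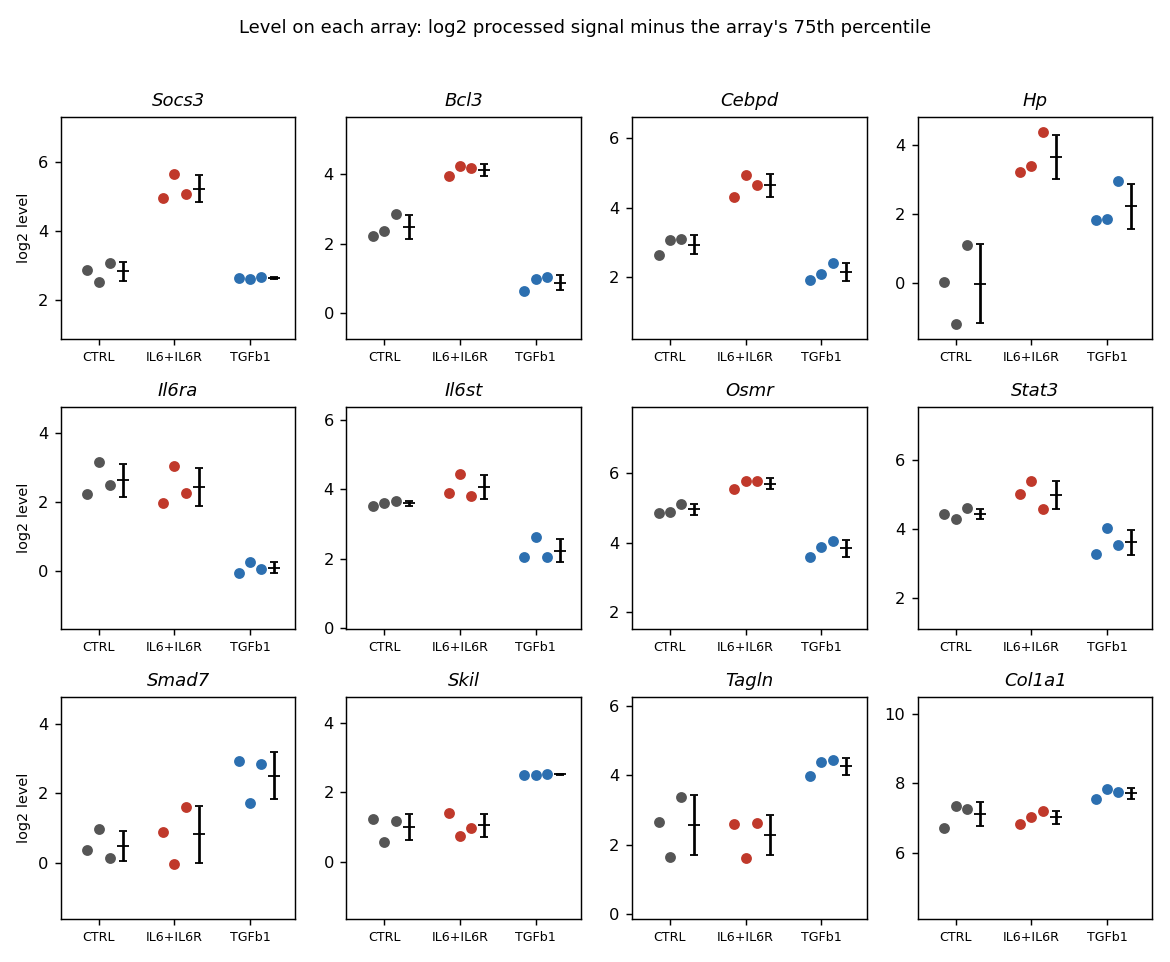
Levels of 12 named genes on each of the 9 arrays (points), as log2 processed signal minus the array's 75th percentile, in CTRL, IL6+IL6R and TGFb1, with the mean and SD of each group of 3 in black; all panels span the same range. *Socs3* stood apart in IL6+IL6R, *Bcl3* and *Cebpd* lay on opposite sides of CTRL, and *Il6ra*, *Smad7* and *Skil* stood apart in TGFb1.

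*Socs3*, which encodes the feedback inhibitor of gp130 signalling, was the named gene for which the IL-6 side alone was called. Its level was 4.95, 5.66 and 5.08 on the IL6+IL6R arrays, 2.64, 2.62 and 2.69 on the TGFb1 arrays and 2.89, 2.54 and 3.10 on the CTRL arrays. All IL6+IL6R arrays were above every array of the other groups, while TGFb1 lay within the range of CTRL. The difference from TGFb1 was 2.53 ± 0.20 (SE, limma q = 6.79e-06, 5.78-fold), the difference of IL-6 from CTRL 2.39 ± 0.20 (q = 0.000808), and that of TGFb1 from CTRL -0.14 ± 0.20 (q = 0.618). This call against CTRL held under all 22 alternative fits. Of the 22 genes tested in the JAK-STAT list, 7 were called higher with IL-6 and 1 lower (*Socs6*, -0.72), with a list median of 0.19. Over all 13229 genes, beside which each list is to be read, 1508 were called higher (11.4%) and 1387 lower (10.5%), with a median of -0.07. The *Socs1*, *Socs2*, *Socs5* and *Socs7* genes of the same family were not called, with differences of -0.01, 0.13, 0.12 and -0.49.

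Among the STAT genes, *Stat2* and *Stat3* were called between both treatments, and *Stat5a* (0.12), *Stat5b* (0.46) and *Stat6* (0.08) were not. *Stat3* was at 5.00, 5.40 and 4.57 with IL-6, at 3.29, 4.02 and 3.54 with TGFß1 and at 4.43, 4.30 and 4.60 in CTRL. The IL6+IL6R and TGFb1 arrays did not overlap, with 1 IL6+IL6R array inside the CTRL range. Its difference was 1.22 ± 0.15 (limma q = 0.00016), made of 0.55 with IL-6 (q = 0.311) and -0.67 with TGFß1 (q = 0.00585). *Stat2* (1.87) and the kinase gene *Jak3* (1.76) were also called higher with IL-6, and both had fallen from CTRL with TGFß1, by 1.49 and 1.19.

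Promoter sequences of the IL-6-called genes were looked at for the STAT motif TTCNNNGAA (either strand), which 8.3% of 32851 windows of the same length in the RefSeq table held. These windows run from 250 bases before to 50 bases after a gene start, 300 in all. Among the 24 gene names called higher with IL-6 than CTRL, 18 had a window and 4 of them (*Gcnt2*, *Sbno2*, *Socs3* and *Sphk1*) held the motif, 22.2% against 9.55% of all genes in the table. Here and below, a gene was counted if any of its windows held the motif, so genes with several windows had more occasions to match. A match is a description of the letters and not of binding. The windows of *Socs3* (GRCm38.p6, chr11:117969317-117969616, minus strand) and of *Sbno2*, a transcriptional co-regulator gene (chr10:80101138-80101437, minus strand), are shown since both genes were called on the IL-6 side, with the motif in capitals, starting 154 and 24 bases before the gene start.
Socs3: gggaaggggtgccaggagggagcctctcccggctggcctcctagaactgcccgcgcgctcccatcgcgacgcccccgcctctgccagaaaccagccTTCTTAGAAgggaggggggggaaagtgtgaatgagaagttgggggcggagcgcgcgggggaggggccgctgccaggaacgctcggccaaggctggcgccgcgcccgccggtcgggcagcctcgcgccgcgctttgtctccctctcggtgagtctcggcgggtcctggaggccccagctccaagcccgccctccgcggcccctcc
Sbno2: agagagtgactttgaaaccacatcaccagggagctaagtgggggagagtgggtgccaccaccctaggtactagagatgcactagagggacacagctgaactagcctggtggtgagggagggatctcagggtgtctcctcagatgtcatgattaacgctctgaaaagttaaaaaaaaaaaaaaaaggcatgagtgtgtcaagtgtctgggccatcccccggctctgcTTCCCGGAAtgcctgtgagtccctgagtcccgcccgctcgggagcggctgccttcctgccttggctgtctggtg

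Of the 22 genes tested in the list of STAT3 targets, 10 were called higher with IL-6 than with TGFß1 and 3 lower, with a median of 0.49. *Bcl3*, a co-regulator of NF-kB proteins, was at 3.94, 4.24 and 4.19 with IL-6, at 0.62, 0.97 and 1.03 with TGFß1 and at 2.21, 2.35 and 2.86 in CTRL. No groups overlapped, and CTRL lay between both treatments. It was higher with IL-6 than with TGFß1 by 3.25 ± 0.21 (limma q = 1.52e-06), having risen by 1.65 with IL-6 (q = 0.00871) and fallen by 1.60 with TGFß1 (q = 0.000196). *Cebpd*, a transcription factor of the acute-phase response, was at 4.31, 4.95 and 4.65 with IL-6, at 1.90, 2.09 and 2.40 with TGFß1 and at 2.62, 3.06 and 3.11 in CTRL. The order of the groups was that of *Bcl3*, again without overlap. Its difference was 2.55 ± 0.21 (q = 9.16e-06), with 1.71 (q = 0.00871) on the IL-6 side and -0.83 (q = 0.0101) on the TGFß1 side. The IL-6 call against CTRL was lost for *Bcl3* in 4 and for *Cebpd* in 3 of 22 alternatives, with the highest q-values at 0.0626 and 0.0697, and both were lost without CTRL 1 and without IL6+IL6R 13. Other STAT3 targets differed through TGFß1: *Icam1*, an adhesion molecule of inflamed tissue, was at least 6.63-fold higher with IL-6 (q = 9.89e-06), being above background on none of the TGFb1 arrays. In the opposite direction, the angiogenic factor *Vegfa* was lower with IL-6 by 15.1-fold (-3.92, q = 1.19e-05; -3.98 to -1.77 over 4 probes, all called), with 0.36 against CTRL on the IL-6 side and 4.28 on the TGFß1 side. *Myc* was lower with IL-6, at -1.22 (q = 0.0322), a call lost in 6 of 23 alternatives, and *Junb*, *Pim1*, *Bcl6* and *Mcl1* were not called.

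Of 10 genes tested in the list of IL-6 family cytokines and receptors, 6 were called higher with IL-6 and 2 lower, with a median of 1.46. The gene of the IL-6 receptor itself, *Il6ra*, was at 1.97, 3.04 and 2.26 with IL-6, at -0.04, 0.28 and 0.07 with TGFß1 and at 2.23, 3.14 and 2.49 in CTRL. The TGFb1 arrays lay below all others, and IL6+IL6R and CTRL overlapped. The difference was 2.34 ± 0.34 (limma q = 0.000435, 5.08-fold), with -0.20 on the IL-6 side (q = 1) and -2.54 on the TGFß1 side (q = 0.000245).

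*Il6st*, which encodes the shared gp130 chain, was at 3.90, 4.46 and 3.82 with IL-6, at 2.04, 2.61 and 2.05 with TGFß1 and at 3.51, 3.60 and 3.68 in CTRL. *Osmr*, the gene of the oncostatin M receptor, was at 5.53, 5.79 and 5.79, at 3.58, 3.87 and 4.05 and at 4.84, 4.90 and 5.13 in the same order. In both genes all IL6+IL6R arrays were above all CTRL arrays, which were above all TGFb1 arrays. The differences between treatments were 1.72 ± 0.16 for *Il6st* (limma q = 2.02e-05) and 1.88 ± 0.16 for *Osmr* (q = 9.16e-06). Against CTRL the TGFß1 side was called for both, -1.26 and -1.13, while the IL-6 side was not, at 0.46 (q = 0.554) and 0.75 (q = 0.123). A second *Osmr* probe was called with IL-6 against CTRL, at 0.73 (q = 0.0452). *Lifr* (1.72) and *Il11ra1* (1.20), the receptor genes for leukaemia inhibitory factor and IL-11, were also called higher with IL-6 than with TGFß1. Endogenous *Il6* was higher with IL-6 by 2.48 ± 0.34 (q = 0.000333), with 1.52 on the IL-6 side (q = 0.149) and -0.96 on the TGFß1 side (q = 0.0462). The ligand gene *Il11*, raised by TGFß1, was called lower with IL-6 (-2.28, q = 0.0194), a call lost in 4 of 23 alternatives.

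Acute-phase and antimicrobial genes were higher with IL-6 in 10 of the 14 tested and lower in none, with the list median at 2.22. Against CTRL, 1 of the 14 was called higher with IL-6 (*Hp*), 7 were called lower with TGFß1 and 1 higher. *Hp*, the gene of haptoglobin, was at 3.21, 3.38 and 4.38 with IL-6, at 1.82, 1.87 and 2.97 with TGFß1 and at 0.04, -1.17 and 1.12 in CTRL. All 3 groups were apart, with TGFb1 between CTRL and IL6+IL6R. *Hp* rose from CTRL under both cytokines, by 3.66 ± 0.55 with IL-6 (12.6-fold, limma q = 0.0262) and by 2.21 ± 0.56 with TGFß1 (4.61-fold, q = 0.0103), and the difference between both, 1.46 ± 0.56, was not called (q = 0.0633). This last difference was called in 8 of 23 alternatives and ran from 0.94 to 1.80, and the IL-6 call against CTRL was lost in 7 of 22.

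*Lcn2* and *Saa3*, genes of the siderophore-binding protein lipocalin 2 and of a serum amyloid A, were called between treatments with neither side called against CTRL. *Lcn2* was at -1.08, 2.52 and -0.49 with IL-6, at -4.00, -4.39 and -4.01 with TGFß1 and at -3.75, -1.01 and -2.84 in CTRL. IL6+IL6R and CTRL overlapped, and the lowest CTRL array was above all TGFb1 arrays. The difference was 4.56 ± 0.94 (limma q = 0.00382), with 2.85 on the IL-6 side (q = 0.503) and -1.72 on the TGFß1 side (q = 0.169). For *Saa3* these values were 2.85 ± 0.67 (q = 0.00735), 1.44 (q = 0.856) and -1.41 (q = 0.114), with 2 of 3 TGFb1 arrays above background. The *Saa3* call was lost without TGFb1 7 (2.19) and with normexp background correction (1.15). The long pentraxin *Ptx3*, a soluble pattern-recognition protein, fell by 5.46 with TGFß1 (q = 3.92e-06) and stood 1.16 from CTRL with IL-6 (q = 0.532). *Lbp*, the gene of the lipopolysaccharide-binding protein, and the metallothionein gene *Mt2* were higher with IL-6 by at least 3.50-fold (q = 0.00448) and by 3.53 ± 0.32 (q = 1.66e-05). *Lbp* was above background on no TGFb1 array and its call was lost with normexp correction (0.84).

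Of 13 complement genes tested, 8 were called higher with IL-6 and 1 lower, with a median of 2.11. *C3*, the central component, and *C1s1* and *C1s2*, proteases of the classical pathway, were higher by 2.90 ± 0.69 (limma q = 0.00807), 3.25 ± 0.53 (q = 0.000901) and 3.41 ± 0.53 (q = 0.000676). *C1s1* and *C1s2* are close paralogs whose probes may share signal. For all 3 the TGFß1 side was called, at -2.44, -2.92 and -3.04, and the IL-6 side was not, at 0.46, 0.33 and 0.36. *Cfi*, whose protein inactivates C3b, went the other way and was at least 5.41-fold lower with IL-6. It was above background on the 3 TGFb1 arrays and on no array of IL6+IL6R or CTRL. It thus passed the filter through TGFb1 alone, and only the bound is given.

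Among 15 chemokine genes tested, 7 were called higher with IL-6 and 2 lower, with a median of 1.02. *Cxcl5*, a neutrophil chemoattractant, was at 2.78, 3.35 and 3.11 with IL-6, at -2.10, -2.11 and -2.18 with TGFß1 and at 1.87, 2.27 and 1.76 in CTRL. No groups overlapped. It was 39.3-fold higher with IL-6 than with TGFß1 (5.30 ± 0.17, limma q = 3.41e-08), having risen by 1.12 with IL-6 (q = 0.0248) and fallen by 4.18 with TGFß1 (q = 1.03e-07). The IL-6 part of this was lost as a call in 10 of 22 alternatives. *Cxcl1* and *Ccl2*, attractants of neutrophils and monocytes, were higher with IL-6 by 3.80 ± 0.19 and 2.39 ± 0.24, with the TGFß1 side alone called (-3.15 and -1.95). *Cxcl12*, which attracts cells through CXCR4, and its scavenger receptor *Ackr3* were lower with IL-6, at -2.03 and -1.47.

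Interferon-stimulated genes were called higher with IL-6 in 18 of 23 tested and lower in none, with a median of 1.31. Against CTRL, 12 of the 23 were called lower with TGFß1, and none was called with IL-6, where the median was 0.33. *Iigp1*, an interferon-induced GTPase, was at 2.75, 4.29 and 3.14 with IL-6, at 0.79, 1.99 and 0.19 with TGFß1 and at 2.04, 3.48 and 2.79 in CTRL. All TGFb1 arrays were below the others. The difference was 2.39 ± 0.57 (limma q = 0.00814). *Gbp2*, another such GTPase, and *Irf7*, a transcription factor of the interferon response, were higher by 1.86 ± 0.28 and 1.81 ± 0.41. With the runs of label numbers added to the model, *Gbp2* was called higher with IL-6 than CTRL (1.055, limma q = 0.0162). The count of 18 genes called between treatments fell to 10 without IL6+IL6R 8 and to 11 without TGFb1 2 or without TGFb1 12.

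**Figure D2:**
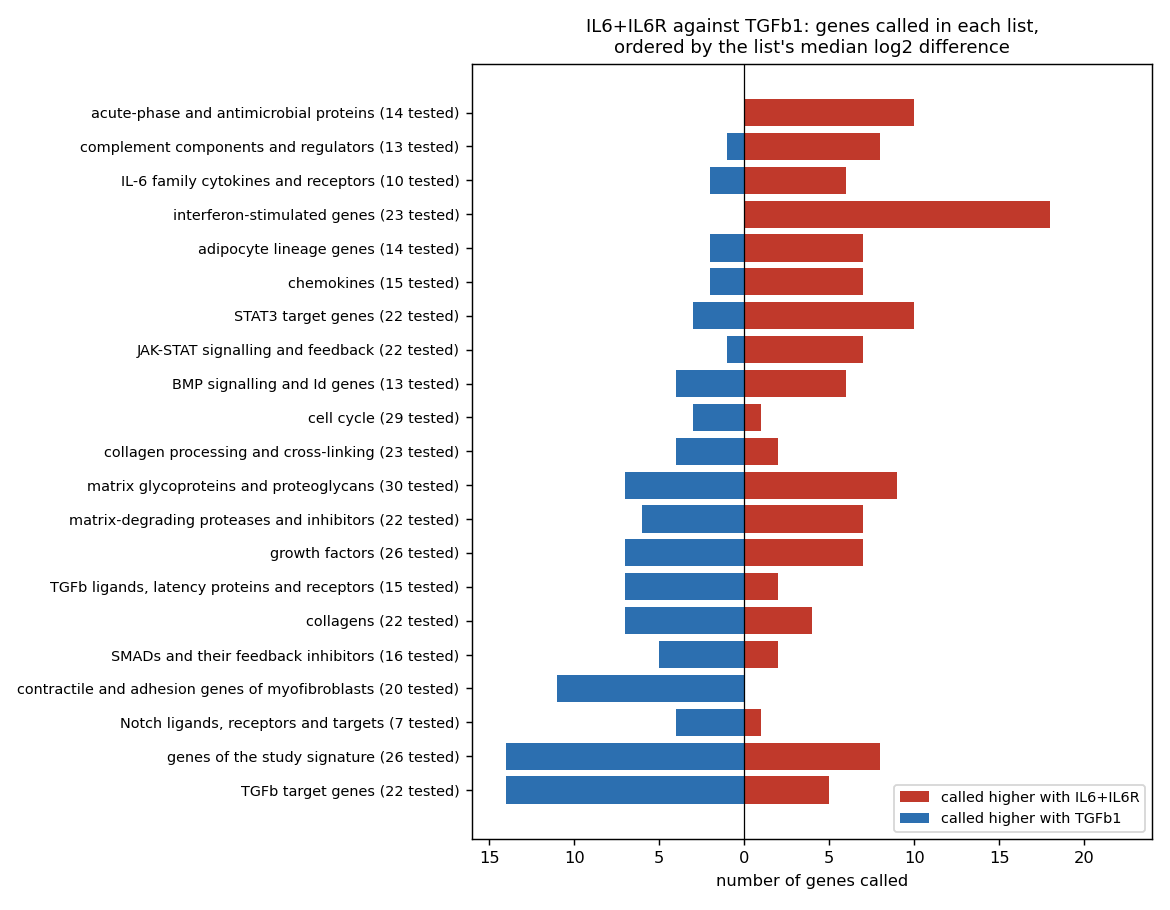
Number of genes called higher with IL6+IL6R (bars to the right) or higher with TGFb1 (bars to the left) in 21 gene lists, ordered from top to bottom by the median log2 difference of the genes tested in the list; the number tested is beside each name. Acute-phase and interferon-stimulated lists had calls to the right alone, with 10 and 18 genes, and the contractile list had 11 to the left alone.

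In the list of TGFß ligands, latency proteins and receptors, 7 of 15 tested were called lower with IL-6 and 2 higher, with a median of -0.21. The remaining 6 were not called. All 3 ligand genes were among the 7: *Tgfb1* at -1.93 ± 0.22 (limma q = 9.86e-05), *Tgfb2* at -1.52 ± 0.16 (q = 5.15e-05) and *Tgfb3* at -2.96 ± 0.14 (q = 2.55e-07). Their differences from CTRL were 1.75, 1.69 and 2.55 with TGFß1 and -0.18, 0.17 and -0.41 with IL-6. The receptor genes *Tgfbr2* (0.98) and *Tgfbr3* (1.73) were higher with IL-6, having fallen with TGFß1 by 0.88 and 1.58, whereas *Tgfbr1* was not called (0.15).

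In the list of SMADs and their feedback inhibitors, 5 of 16 were called lower with IL-6, 2 higher and 9 not. *Skil*, a SMAD co-repressor, was at 1.39, 0.75 and 0.98 with IL-6, at 2.51, 2.49 and 2.54 with TGFß1 and at 1.23, 0.56 and 1.17 in CTRL. *Smad7*, whose protein blocks the receptors, was at 0.88, -0.03 and 1.59 with IL-6, at 2.94, 1.72 and 2.85 with TGFß1 and at 0.36, 0.97 and 0.12 in CTRL. TGFb1 stood above both other groups for each gene, with TGFb1 7 close to IL6+IL6R 13 for *Smad7*. The differences were -1.53 ± 0.21 (limma q = 0.000289) and -1.37 ± 0.24 (q = 0.00147), and the TGFß1 side was called for both (1.59 and 1.70) and the IL-6 side for neither (0.06 and 0.33). *Pmepa1*, another inhibitor, was lower with IL-6, at -2.40 ± 0.21 (q = 1.24e-05). *Smad6*, itself an inhibitory SMAD, and *Smad9* were higher with IL-6, by 1.64 in both, having fallen with TGFß1, and *Smad1*, *Smad2*, *Smad3*, *Smad4* and *Smad5* were not called.

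Of 22 known TGFß targets tested, 14 were called lower with IL-6 and 5 higher, with a median of -1.62. *Ccn2*, the gene of connective tissue growth factor, was lower with IL-6, at -3.95 ± 0.39 (limma q = 3.27e-05), with 3.19 on the TGFß1 side and -0.76 on the IL-6 side. The 5 genes called higher with IL-6 were *Id1*, *Id2*, *Id3*, *Angptl4* and *Snai2*.

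The Notch ligand *Jag1* was at -3.17, -3.73 and -2.81 with IL-6, at 2.86, 2.41 and 2.98 with TGFß1 and at -3.13, -3.90 and -2.30 in CTRL. TGFb1 was far above both other groups. Its difference was -6.01 ± 0.40 (64.3-fold, limma q = 1.89e-06), with 5.88 on the TGFß1 side and -0.13 on the IL-6 side. The SMAD motif CAGAC (either strand), a common motif of 5 bases, was present in 49.59% of the windows of the table. It was in 10 of the 13 genes of the TGFß target list with a window (76.9%, against 53.2% of all genes), among them *Bmpr1b*, *Jag1* and *Tll1*. It was also in 12 of the 18 genes called higher with IL-6 than CTRL that had a window (66.7%), and the STAT motif was in 2 of the 13 TGFß targets (15.4%). The window of *Jag1* (GRCm38.p6, chr2:137116471-137116770, minus strand) is shown as that of the named TGFß target with the largest difference that held the motif and was measured on all 9 arrays, with CAGAC in capitals, starting 209 bases before the gene start.
Jag1: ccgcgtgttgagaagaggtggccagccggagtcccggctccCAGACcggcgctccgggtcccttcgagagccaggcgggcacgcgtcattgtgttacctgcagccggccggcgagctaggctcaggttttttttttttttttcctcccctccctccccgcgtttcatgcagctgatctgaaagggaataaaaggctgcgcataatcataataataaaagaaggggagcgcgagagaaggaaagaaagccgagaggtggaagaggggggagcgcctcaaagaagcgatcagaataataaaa

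In the Notch list, 4 of 7 genes tested were called lower with IL-6 and 1 higher, with a median of -0.71. Besides *Jag1*, the receptor gene *Notch4* (-3.89 ± 0.16, limma q = 9.73e-08) and the target *Hes1* (-4.10 ± 0.37, q = 1.77e-05) were lower, and *Notch3* (1.33 ± 0.32, q = 0.00871) was higher with IL-6. *Hes1* was above background on 1 of 3 IL6+IL6R arrays, and the *Notch3* call was lost when the slide was left out of the model (1.04). All 4 were called on the TGFß1 side. In the BMP list, 6 of 13 genes tested were called higher with IL-6 and 4 lower, with a median of 0.17. The 6 higher were *Id1*, *Id2*, *Id3* and *Id4*, inhibitors of basic helix-loop-helix factors, and the antagonists *Fst* and *Grem1*. *Id4* was at 0.47, 0.41 and 0.34 with IL-6, at -2.88, -3.39 and -2.99 with TGFß1 and at 0.68, 0.48 and 0.41 in CTRL. It had fallen with TGFß1 by 3.63 ± 0.13 and lay at -0.12 from CTRL with IL-6. *Bmpr1b*, a BMP receptor gene, was above background on the 3 TGFb1 arrays and on no IL6+IL6R or CTRL array, which gives at least 36.0-fold. It passed the filter through TGFb1 alone, the group in which it was high, so only the bound is given.

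Contractile and adhesion genes of myofibroblasts were called lower with IL-6 than with TGFß1 in 11 of 20 tested and higher in none, with a median of -0.69. Against CTRL 8 were called higher with TGFß1 and none with IL-6. *Tagln*, the gene of transgelin, was at 2.59, 1.61 and 2.63 with IL-6, at 3.98, 4.38 and 4.43 with TGFß1 and at 2.66, 1.66 and 3.38 in CTRL. TGFb1 was apart, and the difference was -2.09 ± 0.44 (limma q = 0.00423), with 1.80 on the TGFß1 side (q = 0.00826). *Itgb3*, an integrin gene, was lower, at -2.39 ± 0.12 (q = 3.05e-07). *Acta2*, which encodes smooth muscle actin, a marker often used for myofibroblasts, was at 7.05, 6.91 and 7.55 with IL-6, at 7.74, 8.31 and 8.13 with TGFß1 and at 7.52, 7.13 and 8.37 in CTRL. The highest CTRL array was above all TGFb1 arrays. The difference, -0.97 ± 0.30 (q = 0.0277), was called with neither side called (-0.51, q = 1, with IL-6 and 0.47, q = 0.245, with TGFß1). Calls of *Acta2* and of the calponin gene *Cnn1* (-2.05 ± 0.70, q = 0.0413) were each lost in 8 of 23 alternatives, among them without IL6+IL6R 3, IL6+IL6R 8, TGFb1 7 or TGFb1 12. A second *Cnn1* probe, at -1.91, was not called. The list's count was 7 without IL6+IL6R 8.

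Collagen genes went in both directions, with 7 of 22 tested called lower with IL-6 and 4 higher, and a median of -0.28. Fibrillar *Col5a3* and anchoring-fibril *Col7a1* were lower with IL-6, at -3.52 ± 0.30 (limma q = 1.06e-05) and -2.58 ± 0.13 (q = 4.51e-07). Basement membrane *Col4a1* (0.87), *Col4a2* (1.06) and *Col4a5* (1.70) were higher, and had fallen with TGFß1. *Col1a1*, the main chain of type I collagen, was at 6.84, 7.02 and 7.21 with IL-6, at 7.54, 7.85 and 7.76 with TGFß1 and at 6.71, 7.36 and 7.26 in CTRL. All TGFb1 arrays were above those of both other groups. The difference was -0.64 ± 0.20 (q = 0.0274), its call was lost in 9 of 23 alternatives, and neither side was called against CTRL. Its 3 probes ran from -0.83 to -0.36, and 2 of them were called. *Col1a2* (-0.24) was not called. *Col3a1* was higher with IL-6 by 1.19 ± 0.46 without being called (q = 0.063), and was called in 6 of 23 alternatives. The collagen count fell to 6 without IL6+IL6R 13 or without TGFb1 12, and to 7 without IL6+IL6R 8.

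Of 23 collagen processing genes, 6 were called (26.1%), close to the 21.9% of all genes, 2 higher and 4 lower with IL-6. The 4 lower with IL-6 included *Pcolce2*, an enhancer of procollagen cleavage (-5.69 ± 0.77, limma q = 0.000279), the protease *Tll1* (-5.75 ± 0.99, q = 0.00131) and the lysyl hydroxylase *Plod2* (-0.78 ± 0.09, q = 9.45e-05). *Pcolce2* and *Tll1* were each above background on 2 of 3 IL6+IL6R arrays, and a second *Tll1* probe, also called, was at -1.79. The lysyl oxidase relative *Loxl1* was higher by 0.71. *Loxl3* (-0.57) was below the fold-change threshold and not called, and it was called without that criterion.

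Among 30 matrix glycoproteins and proteoglycans tested, 9 were called higher with IL-6 and 7 lower, with a median of -0.10. Fibronectin (*Fn1*) was at 7.29, 7.41 and 6.80 with IL-6, at 8.11, 8.42 and 7.85 with TGFß1 and at 7.46, 7.44 and 7.06 in CTRL. TGFb1 was apart, with a difference of -1.03 ± 0.21 (limma q = 0.00393). The adhesion-modulating glycoprotein tenascin C (*Tnc*) was lower with IL-6, at -2.56 ± 0.22 (q = 1.18e-05). The leucine-rich proteoglycan genes *Dcn* (1.71 ± 0.43) and *Prelp* (2.77 ± 0.62) and the fibulin gene *Efemp1* (2.64 ± 0.23) were higher with IL-6. For all 5 genes the TGFß1 side alone was called.

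Matrix-degrading proteases and their inhibitors were divided evenly, 7 of 22 being called higher with IL-6 and 6 lower, with a median of -0.11. *Mmp3* (stromelysin-1, 2.47 ± 0.34), the aggrecanase *Adamts5* (3.13 ± 0.41) and the metalloproteinase inhibitor *Timp3* (2.90 ± 0.27) were higher with IL-6, each through a fall with TGFß1. *Plat*, the gene of tissue plasminogen activator, was lower, at -2.48 ± 0.19 (limma q = 5.1e-06), and *Tfpi2*, a protease inhibitor, was at least 7.58-fold lower, above background on no IL6+IL6R or CTRL array. *Timp1* was at 7.03, 6.65 and 6.72 with IL-6, at 7.12, 7.27 and 7.14 with TGFß1 and at 6.55, 5.47 and 6.59 in CTRL. IL6+IL6R lay between both other groups on every array. It was called with TGFß1 against CTRL (1.09, q = 0.00594), not with IL-6 (0.60, q = 0.747) and not between treatments (-0.49, q = 0.147).

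Adipocyte lineage genes were called higher with IL-6 in 7 of 14 tested and lower in 2, with a median of 1.22. *Plin4*, of the lipid droplet coat, was higher by 2.88 ± 0.25 (limma q = 1.25e-05), *Lpl*, lipoprotein lipase, by 1.97 ± 0.45 (q = 0.00647) and the fatty acid activating *Acsl1* by 1.99 ± 0.20 (q = 3.19e-05). Each had fallen with TGFß1 and was not called with IL-6 against CTRL. *Pparg* (0.98) and *Cebpa* (1.75), regulators of adipogenesis, were also higher with IL-6, and *Fasn* (-0.59) and *Plin2* (-0.91) lower.

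Growth factor genes were called in both directions, 7 each of 26 tested. The mitogens *Hbegf* (-3.11 ± 0.32) and *Pdgfa* (-3.04 ± 0.50) and the metabolic hormone *Fgf21* (-2.89 ± 0.44) were lower with IL-6 than with TGFß1. *Vegfd* (2.61), *Fgf10* (2.30) and *Gdnf* (1.99) were higher. In the cell cycle list 4 of 29 were called (13.8%, below the 21.9% of all genes). Not called were, among others, *Mki67* (0.25), *Top2a* (-0.00) and *Pcna* (0.10), with a median of 0.02. *Cdkn2c* was higher with IL-6 (0.82), and *Ccnd1* (-0.75), *Cdkn2b* (-0.67) and *Myc* were lower. The *Cdkn2b* call was lost without TGFb1 7 (-0.41). Of the 26 signature genes of the study, which were chosen on the TGFb1 and CTRL arrays among others and are no independent evidence of direction, 14 were called lower and 8 higher with IL-6 than with TGFß1. Against CTRL, 1 of the 26 was called with IL-6 (*Cxcl5*). *Tnf* and *Sod2* were not called in any of the 3 comparisons.

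**Figure D3:**
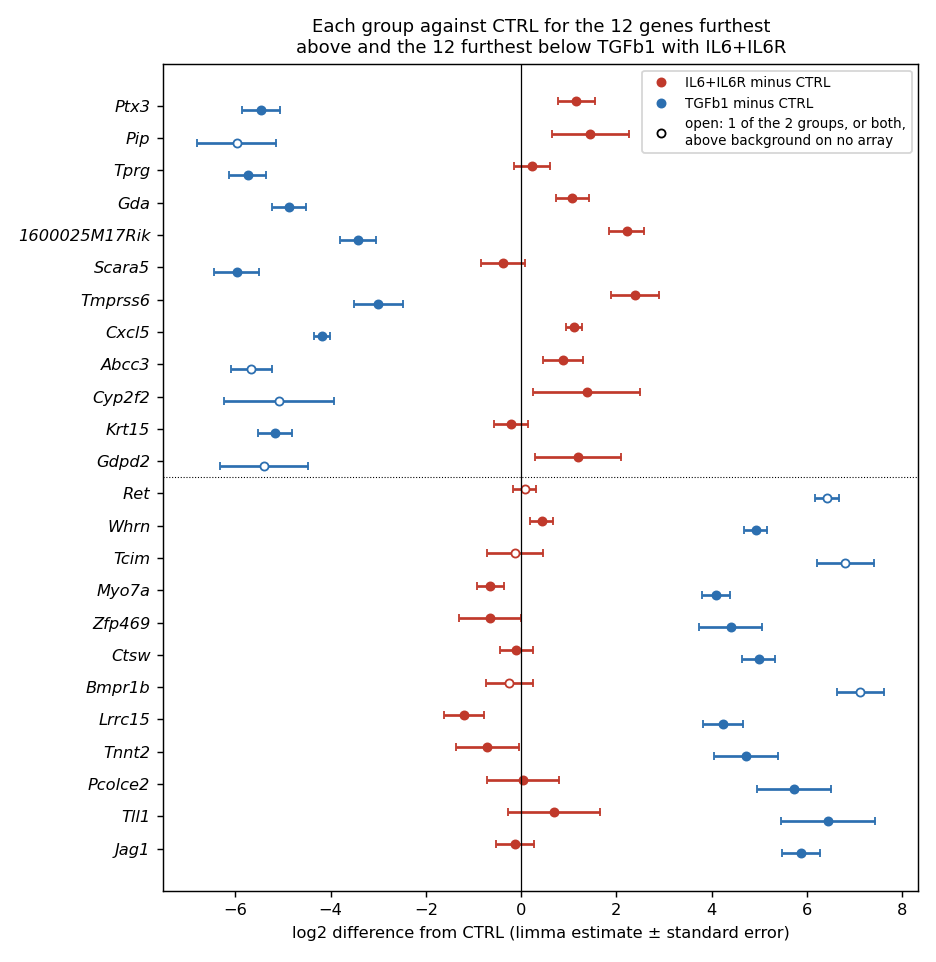
Differences from CTRL (log2, estimate ± SE) of IL6+IL6R (red) and TGFb1 (blue) for the 12 genes furthest above and the 12 furthest below TGFb1 with IL6+IL6R, ranked on bounds where a group was not above background; open points mark a comparison in which at least 1 group was above background on no array, so that its value is no measured size. Blue points lie between -5.97 and -3.00 in the upper 12 genes and at 4.09 or above in the lower 12, and red points between -1.20 and 2.38 in all 24.

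TGFb1 was called against CTRL for all 24 of the genes furthest apart. Highest with IL-6 was *Ptx3*, at 1.74, 2.90 and 2.43 with IL-6, at -4.68, -4.31 and -3.65 with TGFß1 and at 0.71, 1.31 and 1.58 in CTRL. TGFb1 was far below both other groups, and 2 of its 3 arrays were above background. It was followed by *Pip* (at least 75.4-fold, limma q = 7.41e-05), *Tprg*, the guanine deaminase gene *Gda*, the non-coding *1600025M17Rik*, the ferritin receptor *Scara5*, the serine protease *Tmprss6*, *Cxcl5*, the transporter *Abcc3* (at least 39.0-fold, q = 1.71e-06), the cytochrome P450 gene *Cyp2f2* (at least 33.7-fold, q = 0.00164), the keratin *Krt15* and *Gdpd2* (at least 28.2-fold, q = 0.000349). *Pip*, *Abcc3*, *Cyp2f2* and *Gdpd2* were above background on no TGFb1 array, *Scara5* and *Gda* on 1 and *Tprg*, *Tmprss6* and *Krt15* on 2. For 10 of these 12 the TGFß1 side alone was called, and *Cxcl5* and *1600025M17Rik* were called on both sides. *1600025M17Rik* rose by 2.22 with IL-6 (q = 0.0452), a call lost in 11 of 21 alternatives, and fell by 3.43 with TGFß1. *Tmprss6*, which represses the iron hormone hepcidin in liver, was at 0.16, 1.22 and 0.98 with IL-6, at -4.50, -4.97 and -4.27 with TGFß1 and at -1.87, -2.11 and -0.81 in CTRL. No groups overlapped, although its IL-6 difference of 2.38 ± 0.50 was not called (q = 0.134). A second *Tmprss6* probe was at 2.15 between both treatments and was not called.

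Furthest on the TGFß1 side was *Jag1*, followed by *Tll1* and *Pcolce2*, whose values are given above. The other 9 of the 12 included the receptor tyrosine kinase *Ret*, above background on the 3 TGFb1 arrays and on no IL6+IL6R or CTRL array (at least 20.4-fold). *Ret* passed the filter through TGFb1 alone, so only the bound is given. The rest were *Whrn* and *Myo7a*, known from sensory hair cells (-4.49 ± 0.25 and -4.73 ± 0.29), *Tcim* (at least 25.0-fold), *Zfp469* (-5.05 ± 0.66), the protease *Ctsw* (-5.09 ± 0.35), *Bmpr1b*, *Lrrc15*, a membrane protein of activated fibroblasts (-5.43 ± 0.43), and the cardiac troponin gene *Tnnt2* (-5.43 ± 0.68). *Tnnt2* was at 1.47, -0.89 and -0.34 with IL-6, at 5.60, 5.38 and 5.06 with TGFß1 and at 1.85, -0.15 and 0.69 in CTRL. IL6+IL6R and CTRL overlapped well below TGFb1. All 12 were called on the TGFß1 side alone.

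**Figure D4:**
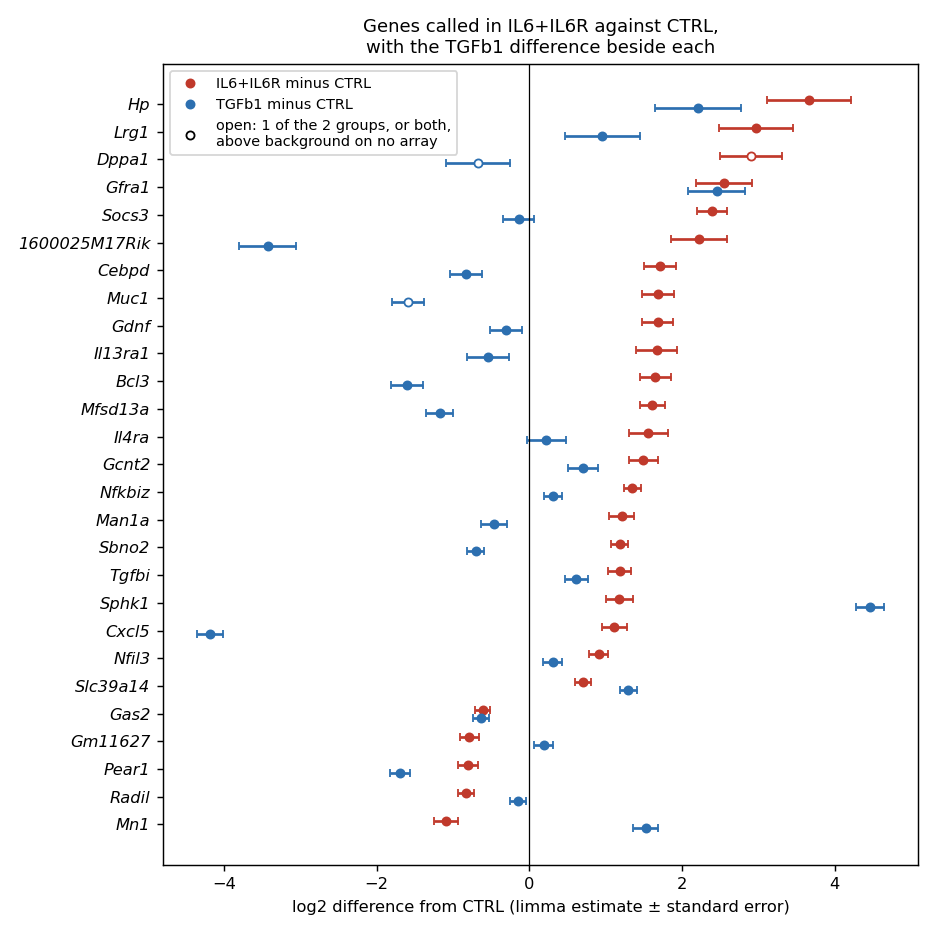
Differences from CTRL (log2, estimate ± SE) of IL6+IL6R (red) and TGFb1 (blue) for the 27 genes whose representative probe was called in IL6+IL6R against CTRL, ordered by the red value; an open point marks a comparison in which at least 1 group was above background on no array. *Socs3*, *Gdnf* and *Il4ra* had blue points near 0, *Gfra1* had both points close together, and *Sphk1* had its blue point at 4.46, beyond the red one.

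The 34 probes called higher with IL-6 than CTRL carried 24 gene names, and those named here beyond the rule were chosen after their values were seen. Of the 34, 25 were also called higher with IL-6 than with TGFß1, 2 lower and 7 not, and TGFb1 against CTRL was called higher for 9, lower for 10 and not called for 15. Cytokine receptor genes among the 24 included *Il4ra*, *Il13ra1*, *Il2rb* and *Osmr*, the last described above. For *Il2rb* the called probe was not the brightest of the gene, and the brightest was not called. *Il4ra* was at 3.29, 3.19 and 2.88 with IL-6, at 1.45, 1.77 and 1.71 with TGFß1 and at 2.06, 0.71 and 1.92 in CTRL. IL6+IL6R was above both other groups, which overlapped. Its differences were 1.56 ± 0.25 from CTRL (limma q = 0.0418) and 1.33 ± 0.26 from TGFb1 (q = 0.00277), and the first was lost in 13 of 22 alternatives. *Nfkbiz*, which encodes a nuclear IkB protein, was between 1.31 and 1.61 with IL-6, between 0.19 and 0.70 with TGFß1 and between -0.04 and 0.29 in CTRL, and the call of this probe (1.35 ± 0.12, q = 0.000808) held under all 22. A second *Nfkbiz* probe, also called, was at 1.44 from CTRL. *Sbno2* was called with IL-6 on 3 probes, and the brightest rose by 1.18 ± 0.11 (limma q = 0.00207) and fell by 0.71 with TGFß1. The mucin gene *Muc1* rose by 1.69 ± 0.21 (q = 0.00871) and was above background on no TGFb1 array.

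The neurotrophic ligand *Gdnf* and its receptor *Gfra1* were both called with IL-6 against CTRL, and stood differently with TGFß1. *Gdnf* was at -0.30, 0.72 and 0.01 with IL-6, at -2.02, -1.60 and -2.08 with TGFß1 and at -1.44, -1.72 and -1.46 in CTRL. *Gfra1*, on the brighter of 2 called probes, was at -1.09, -0.25 and -1.75 with IL-6, at -1.18, -0.70 and -2.03 with TGFß1 and at -3.09, -3.86 and -3.81 in CTRL. Among IL6+IL6R, TGFb1 and CTRL, IL6+IL6R alone was high for *Gdnf*, whereas both treated groups overlapped above CTRL for *Gfra1*. The TNFα arrays were also high for *Gdnf*, with a mean of 0.26 against 0.14 with IL-6 and -1.54 in CTRL. *Gdnf* rose by 1.68 ± 0.20 with IL-6 (limma q = 0.00871) and was at -0.31 with TGFß1 (q = 0.269). *Gfra1* rose by 2.55 ± 0.37 with IL-6 (q = 0.0216) and by 2.45 ± 0.38 with TGFß1 (q = 0.000588), and the difference between both was 0.10 ± 0.38 (q = 0.863). *Ret*, the kinase through which GDNF and GFRα1 signal, was called with TGFß1 alone.

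*Sphk1*, sphingosine kinase 1, and *Slc39a14*, a zinc and iron importer, rose with both cytokines and more with TGFß1. *Sphk1* was at 1.33, 1.99 and 1.25 with IL-6, at 4.61, 4.76 and 4.66 with TGFß1 and at 0.40, -0.08 and 0.71 in CTRL. No groups overlapped, and the difference between treatments was -3.28 ± 0.19 (limma q = 8.27e-07). *Tgfbi*, a matrix protein named for its induction by TGFß, rose by 1.18 ± 0.15 with IL-6 (q = 0.0105) and by 0.61 ± 0.15 with TGFß1 (q = 0.00893), a difference of 0.57 ± 0.15 that was below the fold-change threshold (q = 0.0146). Its TGFb1 arrays, at 3.515, 4.479 and 3.549, overlapped CTRL, at 3.541, 3.202 and 3.392, with TGFb1 7 alone well above. *Lrg1*, an acute-phase glycoprotein, rose by 2.97 ± 0.48 with IL-6 (q = 0.0418, lost in 11 of 21 alternatives). The 5 probes called lower with IL-6 than CTRL were those of *Gas2*, *Gm11627*, *Pear1*, *Radil* and *Mn1*. *Mn1*, a transcriptional co-regulator gene, fell by 1.09 ± 0.16 with IL-6 (q = 0.0216) and rose by 1.52 ± 0.16 with TGFß1 (q = 5.2e-05), and *Pear1* fell with both, by 0.80 and 1.70.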

How the data were processed

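One-color whole mouse 60-mer arrays were scanned by the authors and read with Agilent Feature Extraction (10.7.3.1, per the file headers), whose deposited processed intensity is background-subtracted and spatially detrended. From these intensity values, spots of a probe were averaged, outlier spots and control spots left out, and log2 taken minus each array's 75th percentile. A probe was tested where all 3 arrays of CTRL, of IL6+IL6R or of TGFb1 read it as well above background. limma 3.58.1 (R 4.3.3) was fitted to all 15 arrays, 5 groups of 3 with 2 slides as a block, so that the IL-1β and TNFα arrays add to the estimate of spread, and q-values are Benjamini-Hochberg adjusted over 28388 probes. The fits were tested on simulated data. For each gene the probe with the highest mean was used. Of 41 named genes with several tested probes, 4 (*Col1a1*, *Tll1*, *Tmprss6* and *Vegfa*) had another whose log2 difference was over 1.5 times larger or smaller. This is a ratio of log2 values and not a fold, so probes of other genes can differ by over 1.5-fold. Those of *Ctsw*, for example, were at -5.09 and -6.37. For 3 called genes (*Cnn1*, *Col1a1* and *Tmprss6*) another probe was not called. Where a group was above background on no array, the fold is a bound: the bright group's mean against, on each dim array, the lowest signal of any probe above background or the probe's own if higher. Such a probe passed the filter through groups in which it was bright. A q-value printed beside a bound tests the fitted difference of the readings and not the bound. Of 56605 probes, 33767 were named through RefSeq accessions, and 12 genes per direction and up to 4 per list were named by rule.

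The groups, gene lists and motifs were chosen with earlier results of these data known. The numbers in the labels fall into 3 runs of 5 that hold each group once, which the labels do not call a batch. Alternatives changed the slide term, the runs, the arrays fitted, the scaling, the background correction, the filter, the fold-change criterion and the spots kept, and left out 1 array at a time. A table of values processed by the authors was not used here, and results for a few genes are not reported here. Arrays have no read depth, and their number limits the precision.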

Additional observations from a re-analysis of the deposited data

Results flagged for a closer look

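*Cxcl5*, the chemokine with the largest difference between IL-6 and TGFß1 in its list, was also high on arrays that no comparison above used. Its mean level was 5.12 above the CTRL mean on the IL-1β arrays and 3.03 above it on the TNFα arrays (log2, 3 arrays each), beyond the rise of 1.12 with IL-6.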

How the results depend on the processing

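Of 106 called named genes, 91 kept their call in every alternative fit (up to 23 per gene) and 15 lost it in some. All 212 within-slide differences of called genes had the sign of the fit, which follows largely from calling them on these same arrays. The cause of the shifts below was not tested, except that stricter or looser criteria change counts by construction. Probes called between IL-6 and TGFß1 were 3548 (1652 higher) with normexp background correction, 9853 without a fold-change criterion (4335 higher, 5518 lower) and 2611 at a fold-change of 2 (1568 higher, 1043 lower). Calls of TGFß1 against CTRL were 3788, 10581 and 2702 in the same fits. Calls of IL-6 against CTRL, 39 as reported, were 17 without the slide, 73 with the runs in place of the slide, 245 with both, 12 on the 9 arrays alone and 12 without the filter on dim probes. They ran from 8 to 33 with 1 array left out: 11 without CTRL 1, 25 without CTRL 6, 12 without IL6+IL6R 8 and 8 without IL6+IL6R 13. *Tnf* changed sign, at 0.035 with the percentile over detected probes and at 0.066 without TGFb1 7, and ran from -0.175 to 0.066 with 1 array left out.

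Called genes in a list were 6 for acute-phase genes with probes above background on all 15 arrays. They were 8 and 1 for the cell cycle and 12 and 2 for collagen processing, without a fold-change criterion and at a fold-change of 2, and 5 for contractile genes at the latter. Without the filter they were 6 for collagens and 10 for interferon-stimulated genes, which had 11 on the 9 arrays alone. With 1 array left out they ran from 2 to 5 for the cell cycle, from 6 to 11 for collagens, from 7 to 12 for contractile genes and from 10 to 18 for interferon-stimulated genes. Normexp correction changed the log2 differences of dim genes by a factor of over 1.5, among them *Bmpr1b* (-3.40), *Ret* (-2.71), *Pip* (4.04) and *Abcc3* (3.18), with no change of call.

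The runs of label numbers, added to the slide as a replicate block, gave 6205 calls between IL-6 and TGFß1 and 6515 between TGFß1 and CTRL. The labels do not say that a run is 1 experiment. Signal over background limits these data: the sizes for genes above background on no array of a group are bounds.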
